A study of Mus musculus with 2 samples.

Results

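The imprinted Dlk1-Dio3 domain on mouse chromosome 12 carries a long run of miRNA genes, and their levels were read here in the hearts of 2 mice. With earlier results of these data known, members were defined by position, as the GENCODE M21 miRNA genes on the plus strand in a 220 kb window of chromosome 12 (build mm10). This gave 59 of the 2202 miRNA genes counted, lying between 109544541 and 109747960. The nearest plus-strand miRNA genes outside were Mir345, 703 kb before the window, and Gm27299, 914 kb after it. Both hearts came from female mice of the strain B6CASTF1/J, a hybrid of the C57BL/6 and CAST strains, aged 36 days by the age field (a free-text label writes months) and with no treatment named. The libraries were of small RNA from total RNA. They form 1 group with n = 2 and no contrast between conditions. The hearts are recorded as separate biosamples under 1 shared donor code, so the spread between the libraries may not be that of unrelated animals.

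In this domain the genes Dlk1, Rtl1 and Dio3 encode proteins and are expressed from the paternal chromosome, whereas the long non-coding RNAs Meg3, Rian and Mirg and the miRNAs are expressed from the maternal chromosome. The miRNAs are cut from hairpins within long transcripts, though many members lie outside the annotated Meg3, Rian and Mirg, and are best known from brain, placenta and embryo. A miRNA finds its targets mainly through its seed, bases 2 to 8 from the 5′ end. The counts do not separate the parental alleles, nor the 2 arms (5p and 3p) of a hairpin.

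The mature miRNAs of the most abundant members are shown first, because the levels and the shared seeds described below refer to them. Sequences are those of RefSeq on GRCm38.p6, which matched 57 of the 59 members (all but Gm23912 and Gm27379), and capitals mark the seed. For Mir376c, Mir487b and Mir539 only a 5p arm was matched, and for Mir485 only a 3p arm. Mir1906-1, Mir432, Mir882 and Mir453 each matched a single mature sequence with no arm named. Seeds shared by their other arms may therefore be missed. From the run of genes that ends on the strand opposite to Rtl1 come the 3 highest, Mir127, Mir337 and Mir433.
miR-127-5p: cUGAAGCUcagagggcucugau
miR-127-3p: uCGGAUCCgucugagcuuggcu
miR-337-5p: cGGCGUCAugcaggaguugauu
miR-337-3p: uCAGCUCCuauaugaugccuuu
miR-433-5p: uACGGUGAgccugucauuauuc
miR-433-3p: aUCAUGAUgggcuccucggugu

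From the run that starts with Mir379 come its 3 highest members, with Mir1193. The seed GGUAGAC is common to miR-379-5p and miR-1193-5p, and AUGUAAC to miR-379-3p and miR-411-3p. The seed of miR-411-5p, AGUAGAC, was found in RefSeq in 1 gene outside the cluster, Mir7229.
miR-379-5p: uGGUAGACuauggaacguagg
miR-1193-5p: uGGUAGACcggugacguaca
miR-411-5p: uAGUAGACcguauagcguacg
miR-379-3p: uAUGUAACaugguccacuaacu
miR-411-3p: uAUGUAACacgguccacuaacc
miR-541-5p: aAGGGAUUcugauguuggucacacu
miR-541-3p: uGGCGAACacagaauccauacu

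Before the results, the libraries are described. The tables hold 2074961 sense-strand counts over miRNA genes in replicate 1 and 1766135 in replicate 2, of which the cluster took 9377 and 8169. Levels are counts scaled to a total of 1000000 (CPM), and 1 read is worth 0.482 and 0.566 CPM. Where no read was counted, up to 3 counts are allowed, or 1.45 and 1.70 CPM. Reads that mapped to several places, 42.0% and 39.8% of all reads, stand at no gene. All 3 cardiomyocyte markers were detected (Mir208a, Mir208b and Mir499), with summed levels of 6143 and 8701 CPM. The libraries differed in markers of other cells. The 3 erythroid markers, all detected, had a summed level of 45889 CPM in the first replicate and 7589 CPM in the second. Most of it was Mir451a, with 41391 and 5739 CPM. Mir144 stood at 3406 and 934 CPM, and Mir486 differed little, at 1092 and 917 CPM. The 11 embryonic stem cell markers (1 detected, with Mir302c and Mir367 at 0) summed to 12.0 and 201 CPM. The detected one, Mir302d, stood at 4.82 and 3.96 CPM. The largest differences on that list were at Mir292, with 1.45 and 88.9 CPM, Mir293, with 0 and 52.7 CPM, and Mir294, with 0 and 30.0 CPM. Mir302b and Mir302d were lower in replicate 2. The 8 epithelial and endocrine markers (8 detected, none at 0) summed to 368 and 724 CPM. Of these 8, only Mir375 was lower in replicate 2, at 16.9 and 10.2 CPM. The 9 neuronal markers (3 detected) summed to 74.7 and 190 CPM, of which Mir128-1 alone held 60.7 and 160 CPM. Only Mir9-3, with 2 and 1 counts, was lower in replicate 2, and all 3 Mir124a genes, Mir9-1 and Mir9-2 were at 0. The 5 fibroblast markers (4 detected, with Mir199a-1 at 0) summed to 2599 and 3689 CPM. Mir199b was lower in replicate 2, at 31.8 and 17.0 CPM, whereas Mir21a, Mir214 and Mir199a-2 were higher there. The 2 skeletal muscle markers (Mir206 detected, Mir133b not, none at 0) summed to 4.34 and 15.3 CPM. The part of these markers in the results below was not tested.

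The cluster was expressed in both hearts at nearly the same summed level, 4519 CPM in replicate 1 and 4625 CPM in replicate 2 (4572 ± 75.1 CPM, SD, n = 2), or 0.452% and 0.463% of all miRNA counts. Without the erythroid markers in the totals, a choice made after seeing the data, the sums were 4736 and 4661 CPM. On library sizes adjusted with edgeR's TMM method, which allows for abundant genes that differ, the ratio of replicate 2 to replicate 1 was 0.910 (95% exact interval 0.883 to 0.938), and by library size alone it was 1.02. The direction thus turned with the scaling, and none is given for the cluster as a whole. In whole tissue, fewer cells that express a miRNA and less of it per cell cannot be told apart.

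Of the 59 members, 39 (66.1%) were detected, that is, reached 2 CPM or more in both libraries, where 15.2% of all miRNA genes did. Hairpins that share 18 nt with another annotated hairpin can lose reads that map to several places. Without such hairpins, 34 of 50 members and 248 of 1074 miRNA genes were detected. Of the 39 detected members, 25 reached 10 CPM in both libraries and 7 reached 100 CPM in both. A further 8 had counts but fell short of 2 CPM in at least 1 library: Mir665, Mir1188, Mir380, Mir323, Mir377, Mir412, Mir410 and Mir3072. The remaining 12 had no count in either library. The plot of levels in gene order shows the members above 100 CPM at several places along the domain, some of them adjacent, such as Mir379 and Mir411. Stretches of lower members, with genes at 0 among them, lay between. The longest, from Mir380 to Mir544, had no member at 100 CPM in either library.

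**Figure D1:**
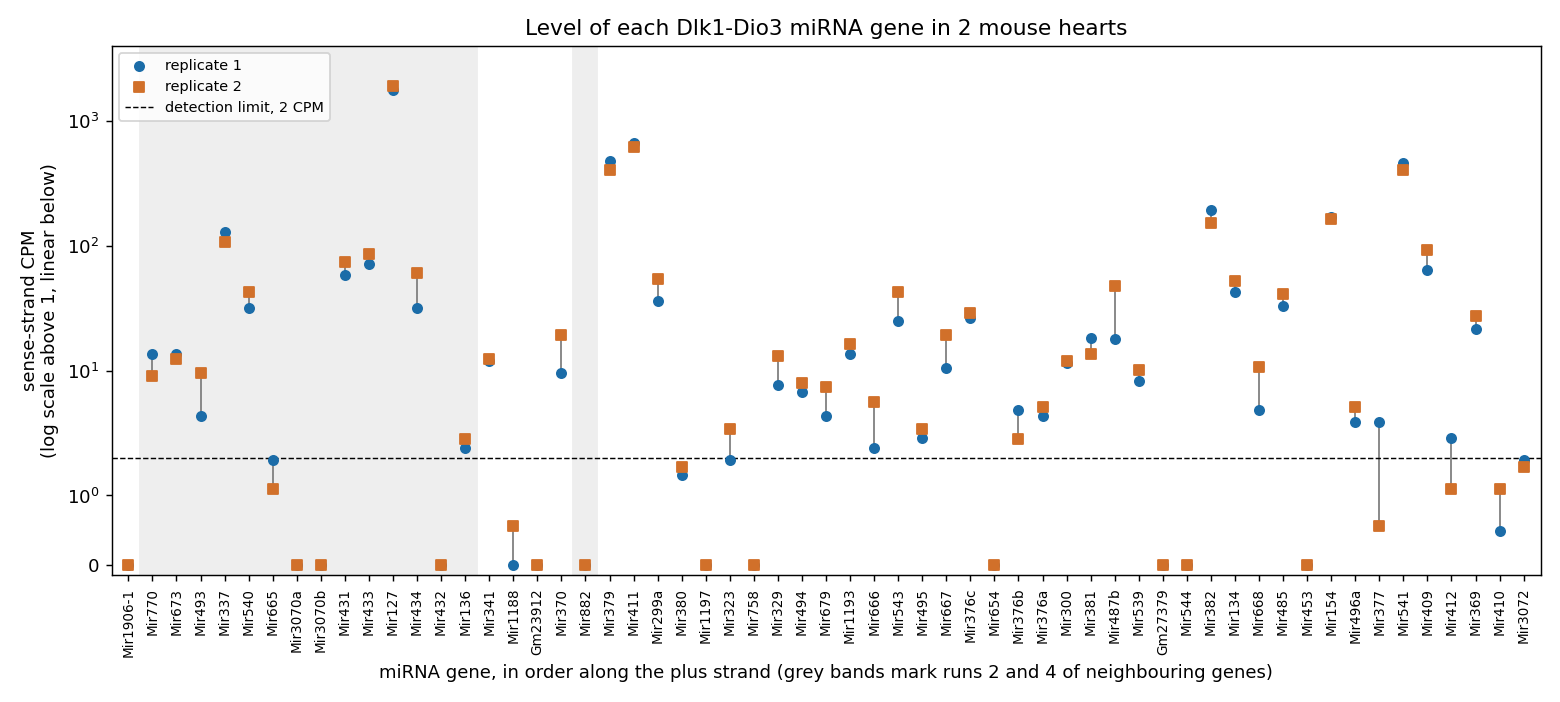
Sense-strand CPM (y axis, logarithmic above 1 and linear below) of the 59 members in their order along the plus strand (x axis), with a circle for replicate 1, a square for replicate 2 and a grey line between them; grey bands mark every other one of 5 runs of neighbouring genes, and the dashed line is the detection limit of 2 CPM. Mir127 lies highest in both libraries, and 12 members lie at 0 in both.

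A few members made up most of the cluster's counts. Mir127 had 3695 counts (1781 CPM) in replicate 1 and 3387 counts (1918 CPM) in replicate 2, 1849 ± 96.9 CPM (SD, n = 2). This one gene held 39.4% of the cluster's counts in replicate 1 (95% exact interval 38.4 to 40.4) and 41.5% in replicate 2 (40.4 to 42.5), and ranked 46 among all miRNA genes by mean CPM. Mir411 followed with 670 and 614 CPM (642 ± 39.6). Mir379 stood at 479 and 404 CPM and Mir541 at 460 and 403 CPM, so that these neighbours in rank differed by less than the spread between the hearts. Mir382, with 193 and 152 CPM, and Mir154, with 171 and 164 CPM, exchanged their order between the libraries. Mir337 was the last member above 100 CPM in both, at 130 and 108 CPM. Reads of miRNAs span the mature molecule, so CPM was not divided by length. Per nucleotide of annotated hairpin, Mir382 and Mir154 changed places and the other 5 of these 7 members kept their ranks.

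Together the 5 highest members held 79.3% of the cluster's counts in replicate 1 (95% exact interval 78.5 to 80.1) and 75.7% in replicate 2 (74.8 to 76.7). These shares do not depend on how the libraries are scaled, and the intervals cover counting error only. Mir411, Mir379, Mir541 and Mir382 together held 39.9% (38.9 to 40.9) in replicate 1 and 34.0% (33.0 to 35.0) in replicate 2, while the share of Mir127 was 39.4% and 41.5%. The 52 members outside the 7 highest held 14.1% (13.4 to 14.8) in replicate 1 and 18.6% (17.8 to 19.5) in replicate 2. Only the set of the 5 highest was planned. The other sets were not, and the difference of their shares between the hearts has no test. With 1 library for each heart, how far such shares vary between hearts was not measured beyond this pair.

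**Figure D2:**
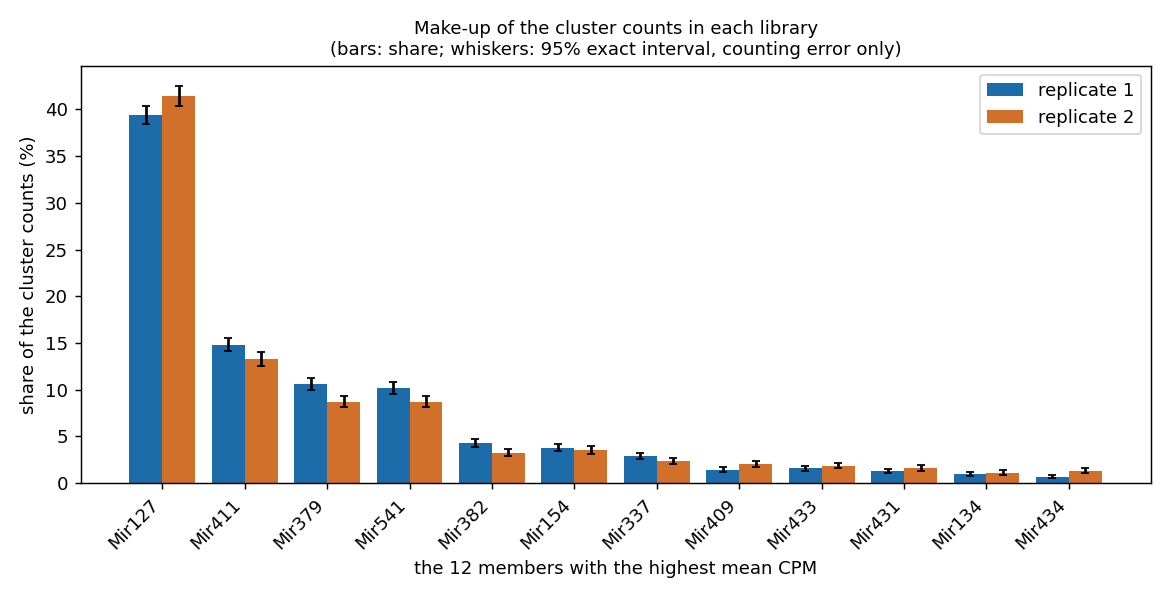
Share of the cluster's counts in percent (y axis) held by the 12 members with the highest mean CPM (x axis) in replicate 1 (blue bars) and replicate 2 (orange bars), with whiskers for the 95% exact interval, which covers counting error only. Mir127 holds 39.4% and 41.5%, and Mir411, Mir379, Mir541 and Mir382 each hold a smaller share in replicate 2.

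Gaps of 10 kb or more divided the members into 5 runs. The first held Mir1906-1 alone. The second ran from Mir770 to Mir136 (chromosome 12, 109563692 to 109595388, plus strand), with 14 members, 10 of them detected. It summed to 2140 and 2325 CPM, or 47.4% and 50.3% of the cluster's counts. The third held 4 members (Mir341, Mir1188, Gm23912 and Mir370) and the fourth Mir882 alone. The fifth ran from Mir379 to Mir3072 (109709060 to 109747960), with 39 members and 27 detected, and summed to 2357 and 2268 CPM, or 52.2% and 49.0% of the counts. The second and the fifth run thus held nearly all counts in about equal parts, with no test of their difference between the hearts.

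Within the second run, 6 members lie on the strand opposite to an exon of Rtl1, a gene derived from a retrotransposon and needed in the placenta. Their miRNAs are fully complementary to the Rtl1 transcript and are known to direct its cleavage. They are Mir431, Mir433, Mir127, Mir434, Mir432 and Mir136, and 5 of the 6 were detected, all but Mir432, which had no count. Mir127 (chromosome 12, 109592846 to 109592915) led them by far. Mir433, reported in studies of cardiac fibrosis, stood at 71.3 and 86.1 CPM, and Mir431 at 58.8 and 74.7 CPM. Mir434 stood at 31.8 and 60.6 CPM, and Mir136 had 5 counts in each library. Outside Rtl1, Mir337 faces Mir3544 on the other strand, and Mir540 stood at 31.8 and 43.0 CPM. Mir673, with 13.5 and 12.5 CPM, Mir493, with 4.34 and 9.63 CPM, and Mir770, with 13.5 and 9.06 CPM in an exon of Meg3, were near the lower end.

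In the fifth run, 25 members lie before the annotated start of Mirg and 14 within it, of which 9 overlap an exon and 5 lie in introns. The 25 summed to 1354 and 1314 CPM with 18 detected, and the 14 to 1003 and 953 CPM with 9 detected. Mir379 (109709060 to 109709125) and Mir411 (109710175 to 109710256) open the run and are its highest members. Their 3p arms share a seed, as printed above. Within Mirg, Mir541 (109742409 to 109742498), reported to limit cardiac hypertrophy, led, followed by Mir382 (109733771 to 109733846) and Mir154 (109738433 to 109738498). Mir409 stood at 64.6 and 92.9 CPM. Mir134, known for its role in the dendrites of neurons, stood at 42.9 and 52.7 CPM, Mir485 at 32.8 and 41.3 CPM and Mir369 at 21.7 and 27.2 CPM. Before Mirg, Mir299a stood at 36.1 and 54.4 CPM, Mir543 at 25.1 and 43.0 CPM, Mir376c at 26.5 and 28.9 CPM and Mir381 at 18.3 and 13.6 CPM.

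Members with reported roles in the heart spanned the range of levels, from Mir541 and Mir433, described above, to Mir410 at the lower end. Mir410 and Mir495 have been reported to promote the proliferation of cardiomyocytes. Mir410 had 1 and 2 counts and was not detected, and Mir495 had 6 counts in each library, 2.89 and 3.40 CPM. Mir329, Mir487b, Mir494 and Mir495 were studied together as regulators of vessel growth. Mir329 had 16 and 23 counts, Mir494 14 in each library and Mir487b 37 and 85. The seed of miR-494-5p is shared with miR-410-5p, and the seed of miR-410-3p, AUAUAAC, was found in 4 genes elsewhere, Mir344d-1, Mir344d-2, Mir344d-3 and Mir344e. The seed of miR-329-3p, ACACACC, was found in Mir362. The sequences are given to show these seeds.
miR-494-5p: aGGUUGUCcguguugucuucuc
miR-410-5p: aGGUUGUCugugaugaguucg
miR-410-3p: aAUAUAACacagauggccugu
miR-329-3p: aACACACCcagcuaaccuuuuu

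The miR-376 genes lie within the fifth run, with Mir654 between Mir376c and Mir376b. Mir376c had 55 and 51 counts, Mir376b 10 and 5, and Mir376a 9 in each library. Mir376b and Mir376c share the seed of their 5p arms and a run of 18 nt of their hairpins, so reads from the shared stretch could have been placed at several genes and left out of these counts. Mir376b also shares such a run with Mir487b.
miR-376c-5p: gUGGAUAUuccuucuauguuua
miR-376b-5p: gUGGAUAUuccuucuaugguua

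Both detected members of the third run lie in introns of Rian. Mir370 had 20 and 34 counts, 9.64 and 19.3 CPM. Mir341 had 25 and 22 counts, 12.0 and 12.5 CPM. Mir1188 had a single count, in replicate 2. The 5p arm of miR-370 has the same seed, AGGUCAC, as the 3p arm of miR-1193, from the fifth run, which had 28 and 29 counts.
miR-370-5p: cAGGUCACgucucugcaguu
miR-1193-3p: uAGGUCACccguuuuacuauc
miR-370-3p: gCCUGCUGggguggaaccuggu
miR-341-5p: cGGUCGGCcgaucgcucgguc
miR-341-3p: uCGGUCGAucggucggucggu
miR-1188-5p: uGGUGUGAgguugggccagga
miR-1188-3p: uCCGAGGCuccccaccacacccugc

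The 12 members at 0 in both libraries were Mir1906-1, Mir3070a, Mir3070b, Mir432, Gm23912, Mir882, Mir1197, Mir758, Mir654, Gm27379, Mir544 and Mir453. Of these, 4 have 18 nt in common with a second hairpin: Mir1906-1 with Mir1906-2 over the whole hairpin, Mir3070a with Mir3070b, and Mir758 with Mir411. Mir3070a and Mir3070b encode the same miR-3070-5p, and a read of it cannot be placed at one of them. The part of reads that mapped to several places in these zeros was not tested. The other 8 share no such run with an annotated hairpin and include Mir432, opposite Rtl1, and Mir882, alone between Rian and Mir379. The whole genome was not searched. The shared seeds of miR-758-5p with miR-1197-5p, and of miR-453 with miR-496a-5p (8 and 9 counts for Mir496a), are among the sequences below.
miR-1906: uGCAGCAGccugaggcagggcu
miR-3070-5p: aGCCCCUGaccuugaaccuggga
miR-3070-3p: uGGUGCUAccgucagggguaga
miR-3070-2-3p: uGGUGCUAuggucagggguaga
miR-882: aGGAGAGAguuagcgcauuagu
miR-758-5p: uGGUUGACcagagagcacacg
miR-1197-5p: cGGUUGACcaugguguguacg
miR-453: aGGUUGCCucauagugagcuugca
miR-496a-5p: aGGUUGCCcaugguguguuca

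Most hairpins of the cluster could be told apart by sequence. Only 9 of the 59 members (15.3%) had 18 nt in common with a second annotated hairpin, where 51.2% of all miRNA genes did. The miRNA genes within Sfmbt2, another long cluster, differed in this: 117 of 119 shared such a run, 7 of 119 were detected, and their summed level was 1064 ± 31.5 CPM (SD, n = 2). No test of these differences was made.

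Nearly all reads at the members lay on the plus strand. On the minus strand, 7 miRNA genes face members (Mir3544, Mir3071, Mir299b, Gm25750, Gm25252, Gm44322 and Gm24321). They had 1 count in replicate 1, at Mir3544, and 0 in replicate 2, where the members they face had 513 and 486. At the 52 members with no such gene opposite, 0 of 8864 reads in replicate 1 and 0 of 7683 in replicate 2 lay on the minus strand, which allows up to 0.0338% and 0.0390%. The members opposite Rtl1 had no minus-strand read in either library.

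The split of each member's counts between the hearts was then tested with an exact binomial test on TMM sizes, with Benjamini-Hochberg adjustment over all 359 miRNA genes with 10 or more counts. The test compares these 2 libraries and covers counting error only. Of 40 members tested, 8 differed (20%), where 44.3% of all tested genes did. The share that differed rose with level. Between 2 and 10 CPM it was 0% of the members and 10.8% of the other tested genes. Between 10 and 100 CPM it was 14.3% and 36.9%, and above 100 CPM 71.4% and 78.2%. Replicate 1 was the higher library for 5 of the 8 and replicate 2 for 3, with 3 and 7 by library size alone and 7 and 2 with DESeq2 size factors. Those factors were 1 in both libraries, since 50 of the 467 genes counted in both had equal counts and the median ratio fell among them. Computed over genes with 10 or more counts, a choice made after seeing the data, they were 1.03 and 0.973 and gave the same 8 members and directions as TMM. Over all tested genes 24.2% were higher in replicate 1 and 20.1% in replicate 2. The median log2 ratio of replicate 2 to replicate 1 was 0.12 over the members and -0.01 over all tested genes.

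Mir487b, with 37 and 85 counts, was the only member tested that both had an adjusted p under 0.05 and differed by 2-fold or more, where 14.2% of tested genes did. It was 2.40-fold higher in replicate 2 (95% exact interval 1.61 to 3.63; exact binomial test, adjusted p = 1.46e-05). Mir434, opposite Rtl1, was 1.69-fold higher in replicate 2 (1.23 to 2.34; exact binomial test, adjusted p = 0.00214). Mir543, with 52 and 76 counts, was 1.53-fold higher in replicate 2 (1.06 to 2.22; exact binomial test, adjusted p = 0.0478), a call lost with DESeq2 size factors (adjusted p = 0.0906) and in 3 other alternatives; over its 7 alternatives the adjusted p ran from 0.00644 to 0.0941. These 3 were of middle level, between 33.0 and 46.2 CPM on average. The mature sequences matched for Mir487b (5p arm only) and Mir434 are given because these genes hold the highest ratios among these calls.
miR-487b-5p: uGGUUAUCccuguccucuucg
miR-434-5p: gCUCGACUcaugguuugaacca
miR-434-3p: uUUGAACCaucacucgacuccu

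The members higher in replicate 1 were all among the 7 above 100 CPM. Mir382, with 401 and 268 counts, was 1.43-fold higher there (95% exact interval 1.22 to 1.68; exact binomial test, adjusted p = 1.55e-05). Mir379, with 994 and 713 counts, was 1.33-fold higher (1.21 to 1.47), Mir541, with 954 and 712, 1.28-fold (1.16 to 1.42), and Mir411, with 1391 and 1085, 1.23-fold (1.13 to 1.33). Mir337, with 270 and 191 counts, was 1.35-fold higher (1.12 to 1.64; exact binomial test, adjusted p = 0.00407). By library size alone, which moves each log2 ratio by 0.17, Mir337 (adjusted p = 0.107) and Mir411 (adjusted p = 0.066) lost their calls. Mir127 did not pass the test on TMM sizes, at a ratio of replicate 2 to replicate 1 of 0.958 (0.914 to 1.00), and was called higher in replicate 1 with DESeq2 size factors and in replicate 2 by library size alone, so it is given no direction.

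On TMM sizes the higher members thus lay below 0 and most, but not all, lower members above it, as the plot of ratios against level shows. Of the 7 above 100 CPM, all had a log2 ratio below 0 (median -0.36; 6 of 7 by library size alone). Of the 33 lower members tested, 26 had a ratio above 0 (median 0.16), 22 with DESeq2 size factors and 29 by library size alone. This grouping by level was made after the values were seen and has no test.

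**Figure D3:**
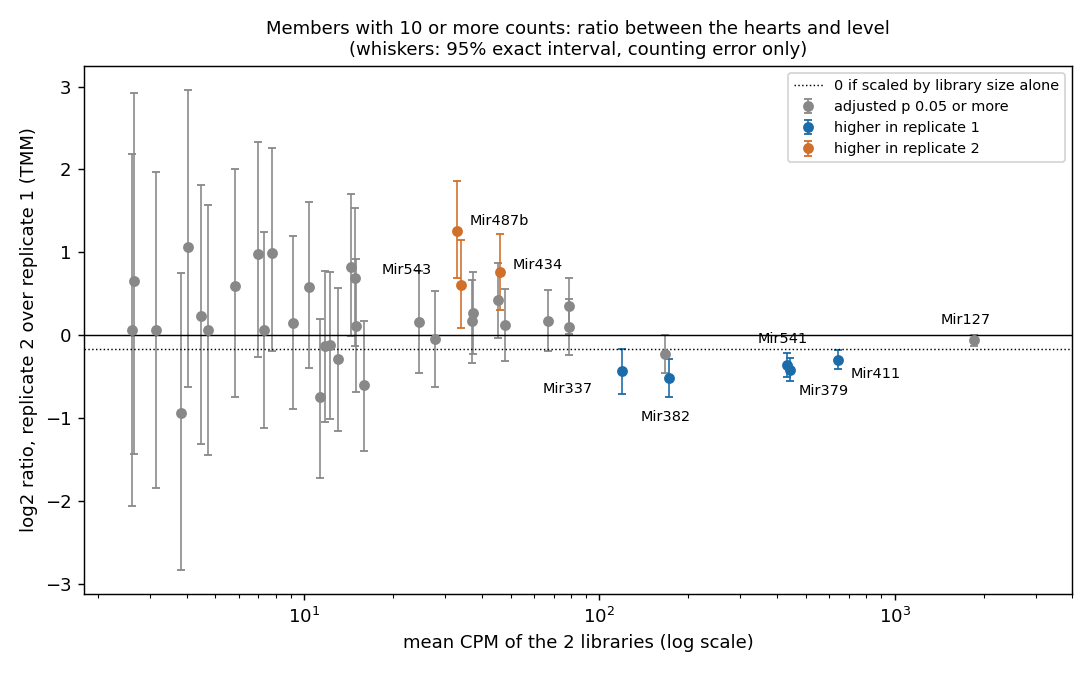
Log2 ratio of replicate 2 to replicate 1 on TMM sizes, without a prior count (y axis), against mean CPM on a log scale (x axis) for the 40 members with 10 or more counts; whiskers are 95% exact intervals for counting error, colours mark the calls, and the dotted line is where 0 would lie by library size alone. The 7 members above 100 CPM lie below 0, and 26 of the other 33 lie above it.

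The SD of the log2 ratio was smaller over the members than over the other miRNA genes at each of 3 levels, while the median absolute log2 ratio was smaller at the lower 2 levels and larger at the highest. Between 10 and 100 CPM, the SD of the log2 ratio was 0.47 over 21 members and 1.5 over 103 other genes, where counting alone gives 0.32 and 0.43. The median absolute log2 ratio there was 0.28 and 0.45. Above 100 CPM the SD was 0.15 over 7 members and 0.76 over 133 other genes, but an SD leaves out a shift common to all members. The median absolute log2 ratio at this level was larger over the members, 0.36 against 0.29, and 71.4% of them were called against 78.2% of the others. Between 2 and 10 CPM the SD was 0.53 over 12 members and 1.24 over 83 others, with 0.69 and 0.77 from counting alone, and the median absolute log2 ratio was 0.39 and 0.68. Over all levels, 1 of 40 members differed 2-fold or more without regard to p, where 19.8% of tested genes did, both with a prior count of 0.5. Without the prior count, Mir666, with 5 and 10 counts, also passed 2-fold, at a ratio of 2.09. The members share 1 locus and are not independent, and this difference in spread was not tested.

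**Figure D4:**
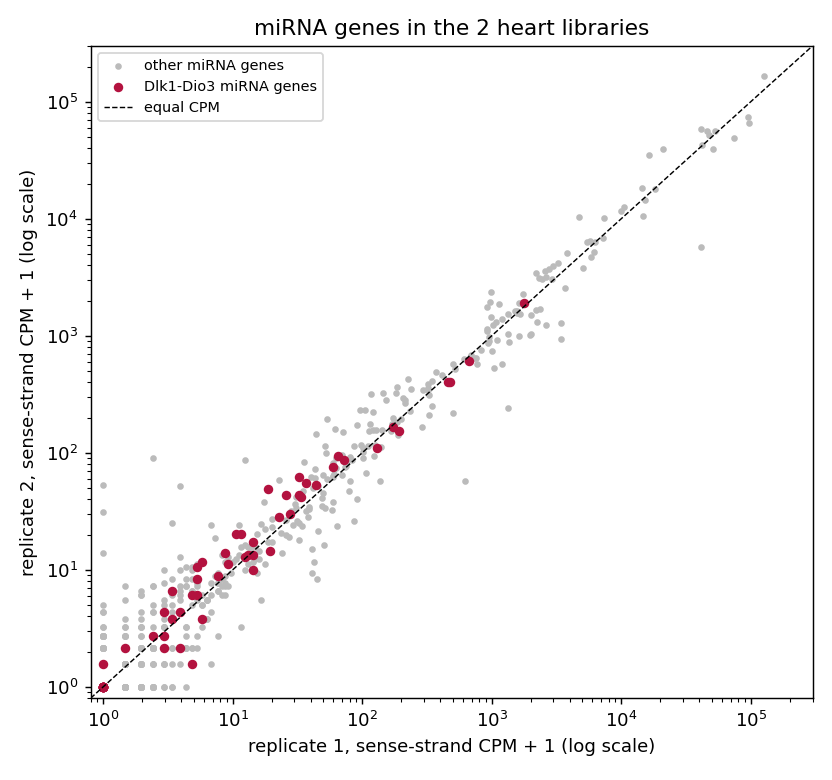
Sense-strand CPM + 1 of each miRNA gene in replicate 1 (x axis) and replicate 2 (y axis), both on log scales, with the 59 members in red, all other miRNA genes in grey and a dashed line at equal CPM. Most genes lie near the line; Mir487b, at 17.8 and 48.1 CPM, is a member off it, and the erythroid Mir451a, at 41391 and 5739 CPM, is another gene far from it.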

How the data were processed

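Small RNA libraries of 2 hearts were used. The authors deposited raw counts per GENCODE M21 miRNA gene on mm10, per the deposited notes, in 3 columns (without regard to strand, sense and opposite strand). The column meanings were inferred from their totals. The aligner, counter and filters: not given in the sources used here. Sense counts were used, with 4 rows that name no gene left out. GENCODE M21 gave symbols, positions and hairpins for all 2202 genes. RefSeq miRNAs were matched by position within 5 nt.

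TMM sizes came from edgeR 4.0.16 and size factors from DESeq2 1.42.0. Log2 ratios used a prior count of 0.5. The binomial test used genes with 10 or more counts and a threshold of 0.05. It was also run on simulated counts that held counting error only. That run cannot show how the test behaves where animals vary. Intervals are exact (Clopper-Pearson, 95%). Without molecular identifiers, PCR copies cannot be told from separate molecules, and intervals and floors therefore cover only counting error. A chi-square test over 359 genes gave 150266 with 358 degrees of freedom, so the libraries are not 1 library deposited as 2 files.

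Members and marker lists were chosen with earlier results of these data known. Genes named were the 20 members with the highest mean CPM, those with 50 or more counts that differed 2-fold, members at 0 in 1 library and above 3 counts in the other (none), and members at 0. Sequences are of the 3 highest members of each run and of members that share a seed, with those of Mir487b and Mir434 added for their ratios after the values were seen. Other named members were chosen after their values were seen or for their shared seeds or reported roles. Alternatives covered detection limits, each library alone, strand, library size, scaling, filters, prior count, thinning, and members with no shared run of 18 nt.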

Additional observations from a re-analysis of the deposited data

How the results depend on the processing

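No paired analysis was possible because the libraries form a single group. Without replicate 1 or replicate 2, the number of members detected was 40 and 41, the summed level 4625 and 4519 CPM, and the share of the 5 highest members 75.7% and 79.3%; the comparison of the libraries needs both. With a limit of 10 CPM, 25 members were detected. Counts without regard to strand give 0 at the 7 members that face a miRNA gene and have a smaller total: the sum was then 5972 CPM and the share of the 5 highest 82.2%. Over all reads the sum was 1655 CPM, without hairpins that share 18 nt 3820 CPM (Mir411 among those left out), and without the erythroid markers in the total, added after seeing the data, 4699 CPM. The 3 highest members held 64.2%. Of the 8 members that differed, 1 did so 2-fold. The median log2 ratio was 0.056 with DESeq2 size factors and 0.29 by library size alone. In the other alternatives run, the number of members that differed was 7 to 10. Members under 10 counts were tested only in the alternative without a filter on low counts.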
